A study of Rattus norvegicus with 12 samples.

Results

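Leucine, isoleucine and valine, the branched-chain amino acids, are broken down in mitochondria by a chain of enzymes, and 10 genes of that chain are described here in the colon of rats fed either more protein or a normal amount. The genes are Bcat2, Bckdha, Bckdhb, Dbt, Dld, Ivd, Auh, Mccc1, Mccc2 and Acadsb. They were found on the array by gene name among the gene spots and were carried by 11 of its 30367 gene probes, 2 of them for Bcat2 and 1 for each other gene. Of the 10 genes, 9 passed the filter on dim probes and stand among 10451 genes tested in all. Acadsb was not flagged as a good spot on any array. No gene of the chain differed between the diets beyond the spread between arrays, and the clearest pattern, that of Mccc1, ran with a gene of colon position.

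All samples were total RNA labelled as colonic epithelium from male Wistar rats with a starting weight of 180 to 200 g. The compared groups were a high-protein diet eaten for 6 weeks and a normal-protein diet eaten for the same time, with 6 replicate arrays each. The labels carry no genotype or drug, and they do not say which replicates came from separate animals, so every p-value measures the spread between these samples. The arrays were 12 single-colour Agilent whole rat genome arrays, spread over 3 slides that each held 2 arrays of either diet.

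Breakdown starts with a reversible transfer of the amino group, after which the branched-chain keto acid dehydrogenase complex commits the carbon skeleton to oxidation. That complex, held inactive when a kinase phosphorylates its E1 part, is the controlled step of the pathway. Leucine then passes through isovaleryl-CoA, methylcrotonyl-CoA and methylglutaconyl-CoA towards acetyl-CoA and acetoacetate, while isoleucine and valine run through their own acyl-CoA dehydrogenases towards propionyl-CoA. In much of the body the amino group transfer takes place outside the liver, and the gut wall is among the tissues that carry it out.

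Between 42.67% and 55.86% of the gene spots of an array were flagged good. With arrays, their number and the spread between them set the precision. The labelled tissue was checked against its markers. All 10 epithelial markers, among them Epcam, Cdh1 and Krt20, were tested. Smooth muscle, fibroblast and macrophage markers were detected as well, with Actg2, a smooth muscle actin, between 14.09 and 15.20 on the log2 scale. The RNA was thus not from epithelium alone. Of the epithelial markers 9 of 10 had a difference below 0, and none was called. The smooth muscle markers averaged between 10.28 and 11.29 on high protein and between 10.95 and 11.56 on normal protein, and all 9 had a difference below 0. Macrophage markers averaged between 8.45 and 8.89 on high protein and between 8.77 and 9.26 on normal protein, with 7 of 8 below 0 and a median of -0.29, and 5 of 7 fibroblast markers lay below 0. None of these was called either. In such bulk RNA, fewer cells of a type and less RNA per cell cannot be told apart. The arrays also stood apart by position along the colon. Hoxb13, a transcription factor gene of the distal colon, was between 12 and 12.56 on 4 high-protein and 2 normal-protein arrays and between 5.83 and 9.32 on the other 2 high-protein and 4 normal-protein arrays. Hoxb6, expressed in more proximal gut, was above 10 on high protein replicates 3 and 4 and on normal protein replicate 6.

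All levels below are log2 intensities after background correction and quantile normalization over the 12 arrays, and every difference is high protein minus normal protein on that scale. Brightness is not compared between genes, because probes differ in how well they bind. A difference counts as a change only where its adjusted p in limma, over all 10451 genes, is under 0.05.

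**Figure D1:**
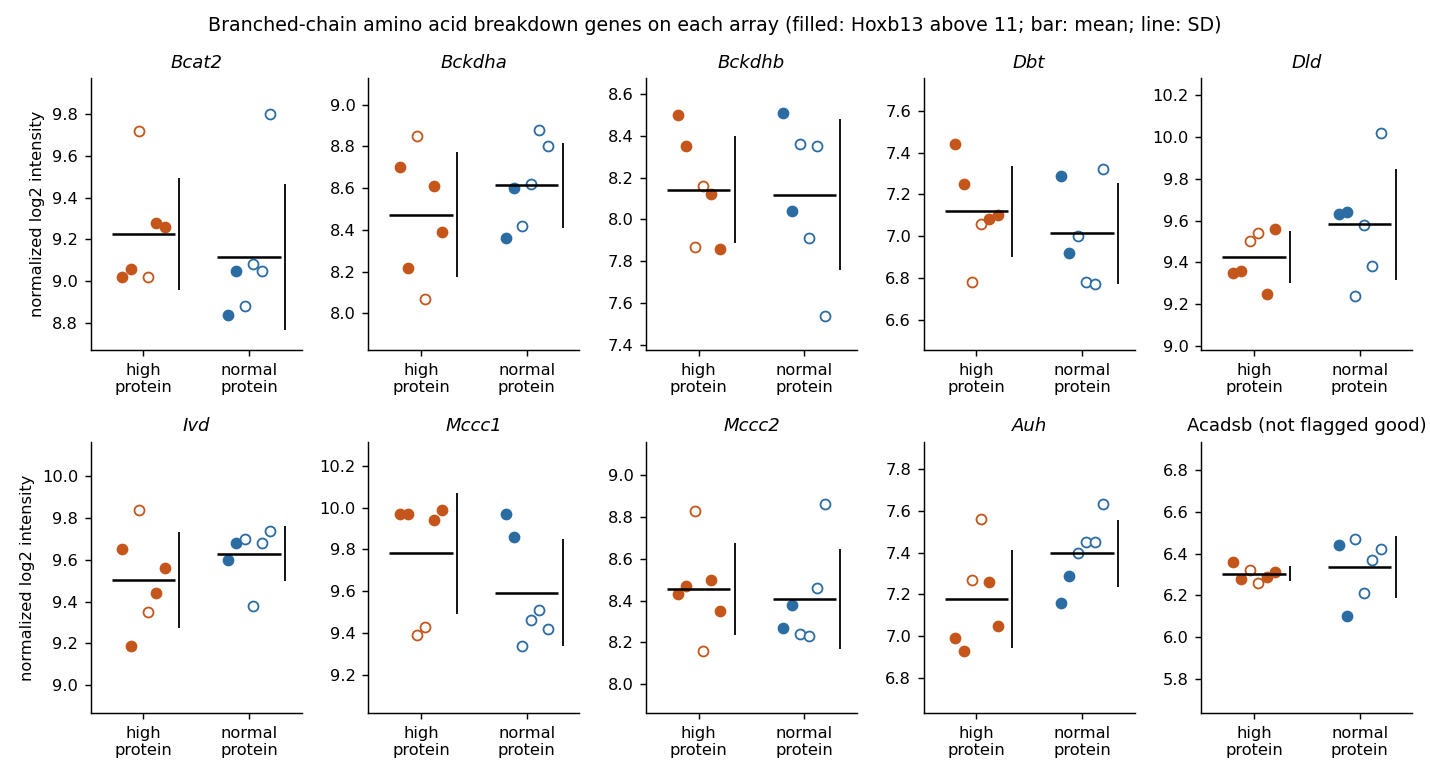
Normalized log2 intensity of each of the 10 genes on the 12 arrays, with high protein on the left and normal protein on the right of each panel; points are arrays, bars are means and vertical lines are SD (n = 6), and filled points are arrays with Hoxb13 above 11. The diets overlap in every panel, and the filled and open points of Mccc1 separate.

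The first question is whether more dietary protein went with a different level of these enzymes' transcripts. No gene of the chain changed: limma called 0 of the 9 tested members, where it called 0% of all genes. At an unadjusted p under 0.05 there were also 0 of 9 members, against 6.64% of all tested genes, 3.66% higher and 2.98% lower on high protein. The diets overlapped for all 9 members, and they did so for all but 0.383% of genes. Differences lay between -0.22 for Auh and 0.19 for Mccc1, with 5 above and 4 below 0 and a median of 0.03. Over all tested genes the median difference was 0.01, and 48.5% lay below 0.

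The width of the intervals says how much could have gone unseen. No member had a 95% interval that reached 1.5-fold in either direction, and of all tested genes 84.7% had none. This bound depends on the processing. With median scaling it held for 7 members, Bcat2 and Mccc1 being the exceptions, and for 76.7% of all genes. Dim genes have their fold reduced by the normexp offset of 50. With an offset of 10 the bound held for 8 members, Auh being the exception, and for 75.2% of all genes. With the deposited signal minus negative controls it held for 7, Auh and Dbt being the exceptions, and for 65.2% of all genes.

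**Figure D2:**
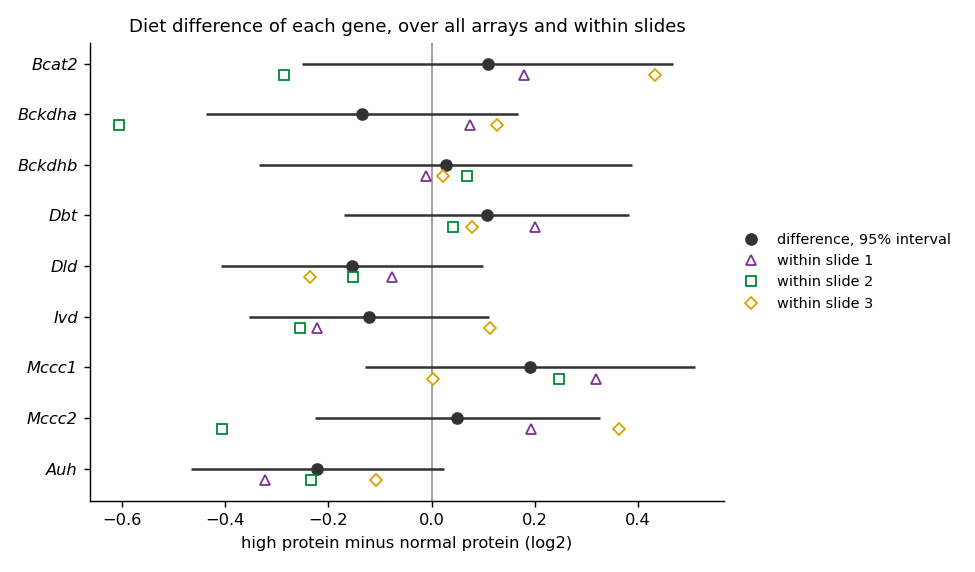
Difference between the diets (high protein minus normal protein, log2) of each of the 9 tested genes, with its 95% interval in limma over all 12 arrays (black) and the difference within each of the 3 slides, each from 2 arrays a diet (open symbols). Every interval includes 0, and the slides take both signs for Bcat2, Bckdha, Bckdhb, Ivd and Mccc2.

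Bcat2, the mitochondrial aminotransferase that moves the amino group of all 3 branched-chain amino acids onto 2-oxoglutarate, opens the chain. It was at 9.02 (lowest), 9.16 (median) and 9.72 (highest) on high protein, against 8.84, 9.05 and 9.80 on normal protein. On each diet a single array stood well above the rest, replicate 3 on high protein and replicate 6 on normal protein. The diet difference was 0.11, with a 95% interval from -0.25 to 0.47 and a limma adjusted p of 0.88. Leaving out normal protein replicate 6 gave 0.25, and leaving out high protein replicate 3 gave 0.01. The second Bcat2 probe, whose normalized mean was slightly lower than that of the probe used, was also highest on those same arrays, at 9.59 and 10.07, and had a diet difference of 0.02.

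The same pair of arrays had the highest level of each of the 3 tested endothelial markers, Kdr, Pecam1 and Vwf. Their mean was 9.20 on high protein replicate 3 and 9.79 on normal protein replicate 6 and between 8.52 and 8.76 elsewhere, and Cdh5 and Tek were not flagged good on any array. S100b, a marker of glia, was also highest on this pair, at 8.15 on high protein replicate 3 and 11.72 on normal protein replicate 6. The neuron markers differed between the arrays of this pair. On normal protein replicate 6 Elavl4 was at 6.37, the lowest of the normal-protein arrays, and Uchl1 at 8.98 was exceeded on 3 of them. On high protein replicate 3 Uchl1 was at 9.46, the highest of the 12 arrays. Elavl4 was at 6.61 there, exceeded among the high-protein arrays only by 6.62 on replicate 6. Gfap, another marker of glia, was not flagged good on any array. The part of these cells in the Bcat2 level was not tested.

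The branched-chain keto acid dehydrogenase complex has a decarboxylase of alpha and beta chains (Bckdha and Bckdhb), an acyltransferase core (Dbt) and a flavoprotein (Dld). Bckdha ran from 8.07 through a median of 8.5 to 8.85 on high protein and from 8.36 through 8.61 to 8.88 on normal protein. Its difference was -0.13 (95% interval -0.44 to 0.17, limma adjusted p = 0.83). The lowest array, high protein replicate 4, also had the lowest smooth muscle marker mean, 10.28, and the highest array, normal protein replicate 5, the highest, 11.56. Without high protein replicate 4 the Bckdha difference was -0.05, and without high protein replicate 3 it was -0.21. Within slide 2, which holds high protein replicate 4 and normal protein replicate 5, the Bckdha difference was -0.60, against 0.08 and 0.13 within slides 1 and 3. The part of smooth muscle in the Bckdha level was not tested.

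Bckdhb, the partner chain, was spread most widely of the complex. It ran from 7.86 through 8.14 to 8.5 on high protein and from 7.54 through 8.19 to 8.51 on normal protein. Its spot was flagged good on 10 of 12 arrays. The exceptions were replicate 6 of high protein and replicate 6 of normal protein, the lowest array of each diet. The highest array of each diet was replicate 1, both on slide 1. The diet difference was 0.03 (95% interval -0.33 to 0.39, limma adjusted p = 0.97). It turned to -0.09 without normal protein replicate 6 and to -0.04 without high protein replicate 1, so its sign rests on single arrays.

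Dbt, which carries the lipoyl arm and passes the acyl group to coenzyme A, was dim and was flagged good on 11 of 12 arrays. It was between 6.78 and 7.44 on high protein with a median of 7.09, and between 6.77 and 7.32 on normal protein with a median of 6.96. Of the 6 high-protein arrays, 5 lay above the normal-protein mean. The difference was 0.11 (95% interval -0.17 to 0.38, limma adjusted p = 0.85). It was 0.021 with 75th percentile scaling, between 0.043 and 0.17 with single arrays left out, and 0.27 without the 3 arrays with Hoxb6 above 10 (limma adjusted p = 0.41).

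Dld reoxidises the lipoyl arm, and the pyruvate and 2-oxoglutarate dehydrogenase complexes and the glycine cleavage system use the same protein. It lay between 9.25 and 9.56 on high protein, with a median of 9.43, and between 9.24 and 10.02 on normal protein, with a median of 9.60. None of the 6 high-protein arrays lay above the normal-protein mean, although the groups overlapped. The difference was -0.15 (95% interval -0.41 to 0.10, limma adjusted p = 0.79). Normal protein replicate 6 had the highest normalized Dld level, and without it the difference was -0.07. Within the 3 slides it was -0.08, -0.15 and -0.23.

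The leucine arm continues with Ivd, isovaleryl-CoA dehydrogenase, which hands its electrons to the electron transfer flavoprotein. Ivd had the smallest spread within diets of the 9 members, with an SD of 0.19 pooled over both diets. It ran from 9.19 through 9.50 to 9.84 on high protein, against 9.38, 9.68 and 9.74 on normal protein. On normal protein 5 arrays lay close together between 9.60 and 9.74, and the high-protein arrays reached further on both sides. The difference was -0.12 (95% interval -0.35 to 0.11, limma adjusted p = 0.81). It was -0.059 without high protein replicate 2 and -0.19 without high protein replicate 3.

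Auh follows further down the leucine arm: it hydrates methylglutaconyl-CoA, and the same protein binds AU-rich RNA. It had the smallest unadjusted p of the members. Its values were 6.93, 7.16 and 7.56 (lowest, median and highest) on high protein, against 7.16, 7.43 and 7.63 on normal protein. Only 1 of the 6 high-protein arrays, replicate 4, lay above the normal-protein mean. Auh averaged 7.18 ± 0.23 on high protein and 7.40 ± 0.16 on normal protein (SD, n = 6 each), a difference of -0.22 (95% interval -0.47 to 0.02). The adjusted p in limma was 0.73. The sign was the same within each slide, at -0.32, -0.23 and -0.11, and with each array left out, from -0.30 to -0.17.

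Methylcrotonyl-CoA carboxylase, the biotin enzyme between Ivd and Auh, has an alpha chain that carries the biotin (Mccc1) and a beta chain (Mccc2). Mccc1 took 2 levels and hardly anything between them. On high protein it was 9.97, 9.97, 9.94 and 9.99 on replicates 1, 2, 5 and 6 but 9.39 and 9.43 on replicates 3 and 4. On normal protein it was 9.97 and 9.86 on replicates 1 and 2 but between 9.34 and 9.51 on replicates 3 to 6. The diet difference was 0.19 (95% interval -0.13 to 0.51, limma adjusted p = 0.79), and 4 high-protein against 2 normal-protein arrays sat on the upper level.

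The upper level of Mccc1 coincided with Hoxb13. Mccc1 was between 9.86 and 9.99 on the 6 arrays with Hoxb13 above 11 and between 9.34 and 9.51 on the other 6 arrays. Where Hoxb13 was high, the high-protein arrays were at 9.94 to 9.99 and the normal-protein arrays at 9.86 and 9.97. Where it was not, the high-protein arrays were at 9.39 and 9.43 and the normal-protein arrays at 9.34 to 9.51. These array sets are not groups of the study and were seen in the data, so no test was made between them. The separation was present with all 4 other scalings and background corrections tried. It was found for 1 of 9 members, where 3.57% of all tested genes separated the same arrays in either direction, 1.88% higher and 1.68% lower with high Hoxb13.

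With the position score in the fit (the Hoxb13 level less the average of Hoxb6 and Hoxb7), the Mccc1 diet difference was 0.15 (limma adjusted p = 0.64). Without the 3 arrays with Hoxb6 above 10 it was 0.34 (limma adjusted p = 0.31). Epithelial markers averaged between 11.48 and 12.01 on the arrays with high Hoxb13 and between 11.48 and 12.36 on the others, and smooth muscle markers between 10.90 and 11.29 against 10.28 to 11.56. Both lists' ranges overlap, but Car1, a carbonic anhydrase gene among the epithelial markers, also separated the array sets, at 10.03 to 13.13 with high Hoxb13 and 13.38 to 14.81 on the others. The part of cell makeup in the Mccc1 level was not tested.

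**Figure D3:**
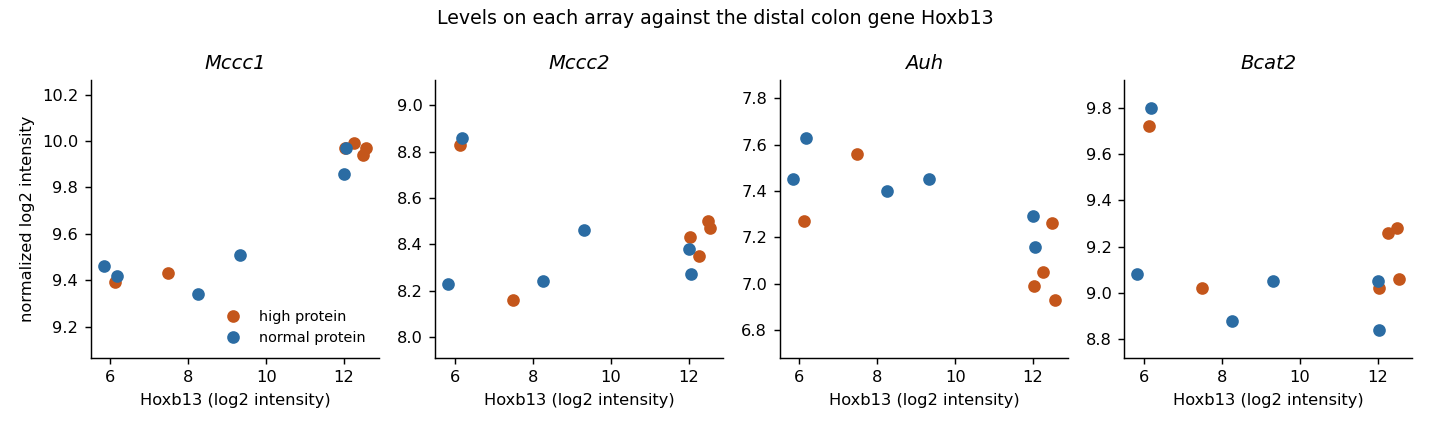
Normalized log2 intensity of Mccc1, Mccc2, Auh and Bcat2 on each of the 12 arrays against that of the distal colon gene Hoxb13, coloured by diet. Mccc1 sits at 9.86 to 9.99 on all 6 arrays with Hoxb13 above 11 and at or below 9.51 on the others, Auh leans the opposite way with a slight overlap, and Mccc2 and Bcat2 are highest on the same pair of arrays.

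Auh leaned the other way, between 6.93 and 7.29 on the arrays with high Hoxb13 and between 7.27 and 7.63 on the others, with a small overlap. With the position score in the fit its diet difference was -0.19 (limma adjusted p = 0.55). Without the 3 arrays with Hoxb6 above 10 it was -0.29, with a limma adjusted p of 0.27. Neither passed the threshold over all genes.

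Mccc2 did not share the levels of its partner chain. It ran from 8.16 through 8.45 to 8.83 on high protein, against 8.23, 8.33 and 8.86 on normal protein. The highest arrays were high protein replicate 3 and normal protein replicate 6, where Mccc1 was on its lower level and Bcat2 was highest. The difference was 0.05 (95% interval -0.23 to 0.33, limma adjusted p = 0.93), and it was -0.03 without high protein replicate 3 and 0.14 without normal protein replicate 6.

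The promoters of Mccc1 and Auh are shown because these members leaned in opposite directions between the arrays with high and low Hoxb13. The sequences are from RefSeq on the GRCr8 build, which holds such a window for 8 of the 10 members, and each gives the 250 bases before the start used in that promoter table, written 5′ to 3′ on the gene's own strand. That start is not always the outer end of the annotated gene, which reaches 93 bases into the window of Mccc1 and 25 bases into that of Auh. The windows of Bcat2 and Dld, searched but not shown, lie wholly inside their genes. That of Acadsb, also searched, has 128 of its 250 bases inside its gene. Capitals mark GGGCGG (the GC box) and CCAAT (the CCAAT box), on either strand. The window of Mccc1 is chr2:120779242-120779491 on the minus strand, and that of Auh is chr17:12481171-12481420 on the plus strand.
Mccc1: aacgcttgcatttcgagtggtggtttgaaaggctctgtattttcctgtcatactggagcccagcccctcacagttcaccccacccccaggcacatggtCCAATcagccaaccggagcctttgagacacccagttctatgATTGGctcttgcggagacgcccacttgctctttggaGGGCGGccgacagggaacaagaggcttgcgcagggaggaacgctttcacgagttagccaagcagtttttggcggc
Auh: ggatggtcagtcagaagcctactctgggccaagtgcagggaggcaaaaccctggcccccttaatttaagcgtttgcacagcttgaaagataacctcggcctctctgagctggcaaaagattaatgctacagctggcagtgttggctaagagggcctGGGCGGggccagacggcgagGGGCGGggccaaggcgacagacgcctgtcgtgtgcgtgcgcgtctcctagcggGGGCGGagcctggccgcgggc
The Mccc1 window holds CCAAT 2 times and GGGCGG 1 time, and the Auh window holds GGGCGG 3 times and no CCAAT. Over the 8 members with a window, 5 held CCAAT and 6 held GGGCGG, where 34% and 30.5% of 33469 rat promoters did. G and C made up 56.4% of the Mccc1 window and 62.8% of the Auh window, against a median of 51.2% over all promoters. Searched on both strands as well were CACGTG (the E-box), the NRF1 motif, AAGGTCA (bound by ERR receptors) and the HOXB13 forms CCAATAAA and CTCGTAAA, of which CCAATAAA contains CCAAT. No member's window held any of these letters, and 5.6%, 0.8%, 4%, 1.1% and 0.1% of all promoters did.

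Acadsb, the dehydrogenase of the isoleucine arm, could not be compared. Its single spot gave 15 to 33 intensity units over local background and was not flagged good on any of the 12 arrays. Normalized values lay between 6.26 and 6.36 on high protein and between 6.1 and 6.47 on normal protein, at the dim end where the offset sets the value.

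Levels within an array were also set against each other, to see whether parts of one enzyme shifted unequally with diet. Of the planned balances 4 could be computed, since Acadsb and Ppm1k were not tested. Bckdha minus Bckdhb averaged 0.33 ± 0.42 on high protein and 0.49 ± 0.50 on normal protein (SD, n = 6 each). Its exact two-sided permutation p was 0.55. Without normal protein replicate 6, where the Bckdhb spot was not flagged good, the difference of -0.16 was -0.0084. Mccc1 minus Mccc2 averaged 1.33 ± 0.40 on high protein and 1.19 ± 0.39 on normal protein (exact permutation p = 0.54). Their difference of 0.14 was 0.015 without normal protein replicate 6 and 0.29 without high protein replicate 3. Within each diet the Mccc1 balance was lowest on replicate 3 of high protein and replicate 6 of normal protein, both at 0.56. Bcat2 minus Bckdha averaged 0.75 ± 0.23 on high protein and 0.51 ± 0.27 on normal protein. Its exact permutation p was 0.12, or 0.48 adjusted over the 4 balances. Dbt minus Bckdha differed by 0.24 (exact permutation p = 0.30).

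Members did not vary together as 1 block. Of the 36 pairs of the 9 members, 20 had a Pearson correlation above 0 over the 12 arrays, and the median was 0.11. Correlations here describe these arrays, which differ in position and in cell type marker levels, and carry no test. Bcat2 and Mccc2 had the highest, with r = 0.89 and a Spearman rho of 0.66. It rested on 2 arrays: without normal protein replicate 6 and high protein replicate 3, r was 0.47. Auh and Mccc1 had the lowest, at r = -0.82 and rho = -0.75. Within high protein it was -0.79 and within normal protein -0.84, and without the 2 arrays of most extreme Auh it was -0.80. Bcat2 and Bckdhb ran against each other too (r = -0.82, rho = -0.87), with -0.75 within high protein and -0.90 within normal protein.

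Among the 8845 other named genes compared with each member, the closest in pattern over the 12 arrays are given as a measure of likeness only. Mccc1 was most like Ceacam4 (r = 0.98) and Unc119 (r = 0.97). Auh was most like Tmigd1 (r = 0.95), an adhesion protein of epithelial cells, and Kyat3 (r = 0.94), an aminotransferase of kynurenine. Bckdha was most like Cald1 (r = 0.92), caldesmon of smooth muscle, and Spink8 (r = 0.90). Bcat2 was most like Dst (r = 0.93, but rho = 0.59), the cytoskeletal linker dystonin. Dbt was most like Pdss2 (r = 0.91), which builds the side chain of coenzyme Q, and Mif4gd (r = 0.91). For Dld they were Rassf2 and Cym (both r = 0.96), for Mccc2 Anapc4 (r = 0.95) and Mcts1 (r = 0.94), for Bckdhb Atg101 (r = 0.88) and Chrac1 (r = 0.87), and for Ivd Zfand6 and Pcp4 (both r = 0.84).

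**Figure D4:**
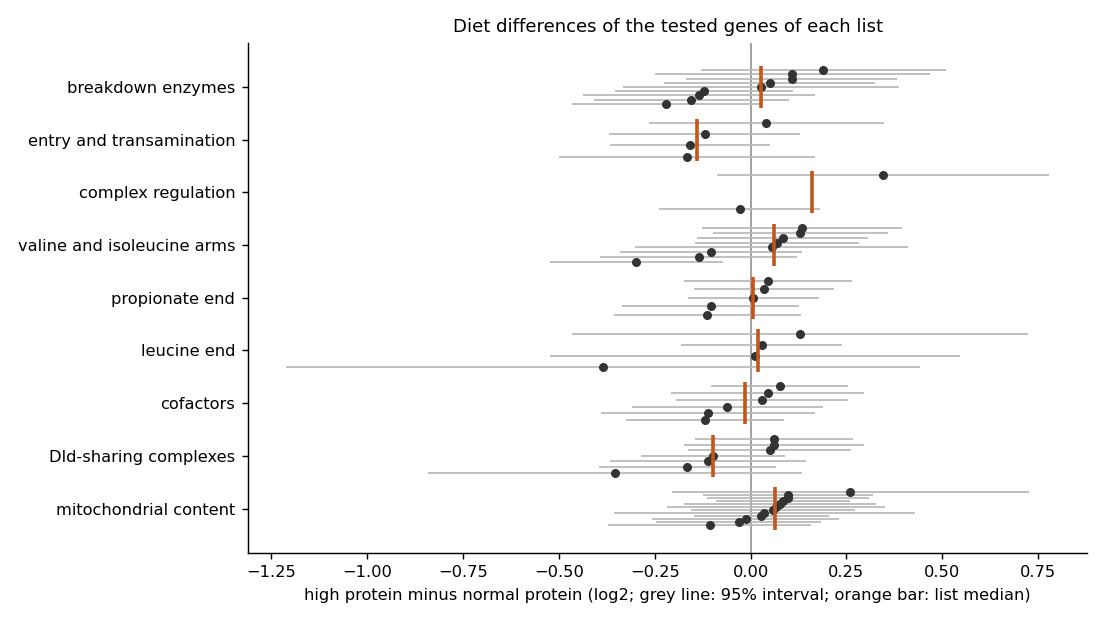
Difference between the diets (high protein minus normal protein, log2) of every tested gene of the breakdown enzymes, of 7 lists around them and of 12 genes of mitochondrial content; points are genes, grey lines 95% intervals in limma and orange bars list medians. No list lies wholly on one side of 0, and Hadhb is the only gene of the 7 lists whose interval leaves out 0.

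The genes around the chain gave the same result. Of 45 further pathway genes in 7 lists, 36 were tested, and limma called 0 of them in either direction. At an unadjusted p under 0.05 there was 1 gene lower on high protein and 0 higher. Of the 36 genes, 19 lay above and 17 below 0, with a median difference of 0.01, the same as over all tested genes.

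Entry and regulation come first. The uptake subunit Slc3a2 (-0.16) and the cytosolic aminotransferase Bcat1 (-0.17) were the 2 of smallest p among 4 tested genes of entry and transamination, of which 3 lay below 0. Bckdk, the kinase that switches the dehydrogenase complex off, was at 8.89 ± 0.19 on high protein and 8.92 ± 0.13 on normal protein (SD, n = 6 each), a difference of -0.03, or 0.03 without high protein replicate 3. Klf15, a transcription factor known from muscle and liver to raise branched-chain amino acid breakdown, was at 7.91 ± 0.28 on high protein and 7.57 ± 0.46 on normal protein (SD, n = 6 each). Its difference of 0.35 had a 95% interval from -0.09 to 0.78 and a limma adjusted p of 0.73. Ppm1k, the phosphatase that opposes Bckdk, did not pass the filter.

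Of the listed genes of the valine and isoleucine arms, 8 of 10 were tested, 5 above and 3 below 0. Hadhb, the thiolase subunit of the mitochondrial trifunctional protein, had the smallest p of all pathway genes. It was at 7.75 ± 0.22 on high protein and 8.05 ± 0.12 on normal protein (SD, n = 6 each), with a limma adjusted p of 0.70. Hibadh, of the valine arm, had the next smallest p of that list and differed by 0.13. At the propionate end the epimerase Mcee and the carboxylase subunit Pccb differed by -0.11 and -0.10, and all 5 tested genes lay between -0.11 and 0.04. At the ketone end Bdh1, which interconverts ketone bodies, differed by 0.13, but by -0.082 without normal protein replicate 6.

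Cofactor supply differed as little: among 6 tested genes the lipoyl transferase Lipt2 (-0.12) and the biotin-recycling Btd (0.08) had the smallest p. The 7 genes of complexes that share Dld had a median of -0.10, with the glycine cleavage carrier Gcsh at -0.35 (95% interval -0.84 to 0.13, and -0.11 without normal protein replicate 5, which stood at 8.40) and the pyruvate dehydrogenase subunit Pdhb at -0.16. Of 12 genes of general mitochondrial content, such as citrate synthase (Cs) and Tfam, 9 lay above 0 with a median of 0.06 and none was called. The mean of these 12 genes was between 10.20 and 10.33 on high protein and between 10.17 and 10.27 on normal protein.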

How the data were processed

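The members and gene lists were chosen with earlier results of these data known. Per the file headers, the authors scanned each array at 532 nm and measured spots with GenePix Pro 6.1.0.4; the deposited intensity values are not normalized. A second intensity column is, per the file headers, the spot mean minus negative controls. Spot flags (deposited values 100 for good, -50 for not found) and the percent of saturated pixels, also deposited by the authors, served as filter and check. The deposited series table holds log2 values; the submitters' processing notes name RMA, and how it was centred stays unknown here. Its IDs fit the scanner values only when moved by 1 row, which gives its scale and direction, and its column medians lay between 4.36 and 4.45. It served only as an alternative.

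Spot means and median local backgrounds entered normexp correction with an offset of 50, followed by quantile normalization. Control spots were left out and spots of a probe averaged. Probes entered the test if a share of 0.5 or more of their spots carried the good flag on 6 or more of 12 arrays, and unnamed probes (1467) were left out. The brightest tested probe stood for a gene. Names came from RefSeq accessions (GRCr8 table; 18355 of 30367 probes matched) or the array. The diet comparison used R 4.3.3 and limma 3.58.1 (lmFit and eBayes, Benjamini-Hochberg over 10451 genes), and balances with an exact permutation test over 924 assignments, whose smallest p is 0.0022. Both were run on simulated data, the fit with changes far larger than the members' differences and the exact test with no change. How often differences of the members' size would be found was not simulated. Named were the members, the 2 genes of smallest p in each pathway list and the 2 most correlated genes of each member. A few genes that this rule names are not reported here. Alternatives were other scalings, backgrounds, filters, blocks, the position score and each array left out.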

Additional observations from a re-analysis of the deposited data

Results flagged for a closer look

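Within each diet, the highest and lowest array of every tested member were compared with the nearest other array, over 18 sets of 6 arrays, of which chance alone would mark about 1 in 20. Bcat2 stood apart on high protein replicate 3, at 9.72 against 9.02 to 9.28 on the other high-protein arrays. It also stood apart on normal protein replicate 6, at 9.80 against 8.84 to 9.08 on the other normal-protein arrays. Mccc2 stood apart on normal protein replicate 6, at 8.86 against 8.23 to 8.46 on the other normal-protein arrays. Both arrays had Hoxb6 above 10 and the highest endothelial marker means, at 9.20 and 9.79, and the highest S100b, and the part of these in the levels was not tested.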

How the results depend on the processing

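No member and no other pathway gene was called by limma in any setting run, and no balance in any setting in which balances were run. Over all genes the count was 0 in each setting but within slide 3, where it was 1. Of 250 recomputed member differences, 234 kept their sign and 16 reversed. The 234 include settings that could not turn a sign. Slide or replicate number as a block, and other filters on spot flags, left the difference of each member they kept exactly as it was. Median scaling turned Bckdha to 0.0019, Dld to 0.0014 and Ivd to 0.026. With that scaling the median difference over all tested genes was 0.097, against 0.0054 in the main setting. The position score turned Bckdhb to -0.0053, and leaving out the 3 arrays with Hoxb6 above 10, chosen after seeing the data, turned it to -0.025. Within slide 1 Bckdha was 0.075, Bckdhb -0.0098 and the Bckdha minus Bckdhb balance 0.085. Within slide 2 Bcat2 was -0.29 and Mccc2 -0.41. Within slide 3 Bckdha was 0.13, Ivd 0.11, Bckdha minus Bckdhb 0.10, Dbt minus Bckdha -0.047 and Mccc1 minus Mccc2 -0.36. With single arrays left out, Bckdhb ran from -0.089 to 0.11 and Mccc2 from -0.026 to 0.14. The cause was not tested. The replicate block called 0 genes (Auh limma adjusted p = 0.64), and it changed no other call. Same-numbered arrays shared a number, and 2 of the 6 pairs also shared a slide. The deviations of same-numbered arrays correlated between -0.11 and 0.40. Of the 6 high-protein arrays, 3 were closest to the normal-protein array of their own number. The labels do not say whether same-numbered samples were paired. Leaving out single arrays, Bckdha minus Bckdhb ran from -0.29 to -0.0084, Dbt minus Bckdha from 0.14 to 0.38, Mccc1 minus Mccc2 from 0.015 to 0.29 and Bcat2 minus Bckdha from 0.18 to 0.34. Median scaling gave Mccc1 0.35, and the signal minus negative controls gave Auh -0.39. The filter on spot flags kept Acadsb out of the main test, and with an offset of 10 Auh was -0.30 and Dbt 0.16.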
